A study of Mus musculus with 3 samples.

Results

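The zinc finger protein genes described here were chosen by name: autosomal protein-coding genes of GENCODE M1, the annotation of the mouse genome build NCBIM37 (mm9), whose symbol is Zfp followed by digits only, apart from Zfp42, which the rule leaves out and which was counted among the other genes. The rule gave 336 gene entries of 21410 autosomal protein-coding genes. They carry 332 distinct names, because Zfp664, Zfp319, Zfp708 and Zfp738 have 2 entries each, and 86 entries lie on chromosome 7, 39 on chromosome 17, 33 on chromosome 13 and 26 on chromosome 8. The 7 single-exon entries Zfp648, Zfp579, Zfp850, Zfp353, Zfp319, Zfp830 and Zfp738 (Zfp319 and Zfp738 with 1 of their entries) have a promoter but no separate first and last exon, which left 329 members for the exon comparisons beside 18235 other genes.

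Genomic DNA of E14 mouse embryonic stem cells, grown on gelatin with serum, LIF and the inhibitors PD0325901 and CHIR99021, was read in 3 libraries. TAPSβ reads 5-methylcytosine (5mC) after glucose has been placed on 5-hydroxymethylcytosine (5hmC), CAPS reads 5hmC after its chemical oxidation, and PS reads the rarer 5-formylcytosine and 5-carboxylcytosine (5fC/5caC) with pyridine borane alone. The files hold DNA modification and no RNA, so the cell label was not checked against marker genes. Each method gave 1 library and there is no treated or control group, so the values below are levels, the share of base calls at CpG cytosines that read as modified, with exact (Clopper-Pearson) 95% intervals that cover counting error only, and no p is given for members against other genes. The libraries held 377288829 to 511365019 CpG base calls with genome-wide levels of 57.5% (TAPSβ), 3.14% (CAPS) and 0.246% (PS). In the last exons of the members 97.6% to 97.8% of CpG cytosines had reads, at a mean of 12.7 (TAPSβ), 9.27 (CAPS) and 10.4 (PS) reads.

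Most proteins of this naming are C2H2 zinc finger proteins. A C2H2 finger is a short unit in which a pair of cysteines and a pair of histidines hold a zinc ion, and a few residues of its helix contact the bases of DNA; fingers follow each other in tandem, joined by a conserved linker, and the tandem array is usually encoded by the last exon. Many of these proteins also carry a KRAB box, which binds the corepressor TRIM28 and through it SETDB1, the enzyme that methylates histone H3 at lysine 9, and in embryonic stem cells the pair keeps retroelements silent and imprinted regions methylated. The genes form tandem clusters that grew by duplication, and their arrays are known for carrying DNA and histone methylation in many cell types.

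By a residue pattern for the C2H2 finger (C, 2 to 4 residues, C, 12 residues, H, 3 to 5 residues, H), the last exons of the members encode a median of 9 fingers and at most 33. At least 3 fingers were found in 244 of 329 last exons and none in 69, of which 14 also had none in any other exon. A KRAB box pattern was found in 120 members. Among the other genes 182 had at least 3 fingers in the last exon. Regular fingers (C, 2 residues, C, 12 residues, H, 3 residues, H) were taken from members with at least 3 fingers in the last exon. Only those whose 84 bases from the first cysteine codon lay within the coding part of that exon were kept. This gave 2549 fingers in 243 genes. They were read over these 84 bases, with a mean of 2.01 CpGs each. Whether another finger starts right after these bases was not checked, so the last 7 residues are not a linker in every case.

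The finger with the most CpGs is shown for the 3 members with the most fingers in the last exon (Zfp619, Zfp62 and Zfp748), for the member with the highest TAPSβ level (Zfp2) and, chosen after its values were seen, for the imprint regulator Zfp57, as these are the sequences that the TAPSβ reads cover. Each runs 5′ to 3′ on the coding strand of NCBIM37 from the first cysteine codon, and capitals mark CpGs.
Zfp619, chr7:46791919-46792002 (+): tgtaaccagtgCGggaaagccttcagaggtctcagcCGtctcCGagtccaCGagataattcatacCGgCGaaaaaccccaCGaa
Zfp62, chr11:49028961-49029044 (+): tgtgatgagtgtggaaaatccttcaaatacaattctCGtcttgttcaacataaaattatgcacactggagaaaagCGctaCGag
Zfp748, chr13:67642657-67642740 (-): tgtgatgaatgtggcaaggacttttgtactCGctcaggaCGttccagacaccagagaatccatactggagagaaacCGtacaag
Zfp2, chr11:50714246-50714329 (-): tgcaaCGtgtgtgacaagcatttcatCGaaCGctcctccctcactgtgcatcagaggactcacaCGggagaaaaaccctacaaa
Zfp57, chr17:37146624-37146707 (+): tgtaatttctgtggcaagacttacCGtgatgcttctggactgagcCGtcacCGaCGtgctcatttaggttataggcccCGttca

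These stretches are all coding and differ in CpG number and in level. The finger of Zfp2, with 4 CpGs, read 97 of 110 base calls as modified in TAPSβ (88.2%, interval 80.6% to 93.6%) and 6 of 104 in CAPS (5.77%, 2.15% to 12.1%). The finger of Zfp62, with 3 CpGs, read 51 of 69 in TAPSβ (73.9%, 61.9% to 83.7%), and that of Zfp748, also with 3, read 43 of 78 (55.1%, 43.4% to 66.4%). The CpG at bases 77 and 78 of the Zfp748 finger read 0 of 14 on 1 strand and had no reads on the other. The 7 CpGs of the Zfp619 finger gave 46 of 86 (53.5%, 42.4% to 64.3%). Zfp57 stood below all of these: its finger with 5 CpGs read 5 of 189 in TAPSβ (2.65%, 0.864% to 6.07%) and 9 of 100 in CAPS (9.0%, 4.20% to 16.4%). No base call of the 5 fingers was modified in PS, of 45 to 107 calls each, which allows a level of up to 7.87% in the least covered.

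The first comparison asks whether last exons of the members differ from last exons of all other protein-coding genes. Summed over reads they were close in 5mC and 5hmC, and the direction in PS was not stable. The TAPSβ level was 49.3% (49.2% to 49.5%) in the members and 51.1% (51.0% to 51.1%) in the other genes, a ratio of 0.966 (0.963 to 0.969). The CAPS level was 3.82% (3.75% to 3.90%) against 3.99% (3.98% to 4.01%), a ratio of 0.958 (0.939 to 0.977). The PS level was 0.253% (0.234% to 0.272%) against 0.223% (0.220% to 0.227%), a ratio of 1.13 (1.05 to 1.22). Both levels lie under the background rate of that library on the unmodified spike-in, 0.27%. This PS ratio fell to 0.965 without cytosines that, at a PS coverage of at least 5, read as modified in at least 20% of PS reads. It fell to 0.897 among last exons at least 50% coding. In the other settings that gave a ratio it stayed above 1. These ran from 1.06 for last exons overlapping no other gene to 1.29 for the mean over genes. The summed PS level was higher in the members on 6 of 19 autosomes. The median over genes was 0.140% in the members and 0% in other genes, both under the background rate, and was higher in the members on 16 of 19 autosomes. On most autosomes the median of other genes was 0%, so any member median above 0% counted as higher. Last exons of the members are also longer, with a median of 2181 bp against 958 bp. The upper quartile was 0.263% in the members and 0.276% in other genes.

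Gene by gene the order was the reverse for 5mC. The median last exon had a TAPSβ level of 67.3% (quartiles 51.6% and 73.9%) over the 318 members with at least 50 base calls, and of 65.5% (51.8% and 72.6%) over 16423 other genes. A sum over reads gives more weight to CpG-rich exons than a median over genes does. The summed TAPSβ ratio also passed 1 with other choices of exon: it was 1.08 over coding bases only, 1.04 with single-exon genes and 1.28 among last exons at least 50% coding, where the members stood at 49.1% and the other genes at 38.4%. The summed TAPSβ level was higher in the members on 11 of 19 autosomes. For CAPS the median was 3.39% (2.27% and 4.87%) over 317 members and 3.57% (2.18% and 5.32%) over 15853 other genes, with the summed level of the members higher on 7 of 19 autosomes and their median on 10. For TAPSβ the direction thus changed between these summaries. For CAPS the summed level and the median were lower in the members, while the summed ratio was 1.02 with single-exon genes and 1.04 among last exons at least 50% coding.

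**Figure D1:**
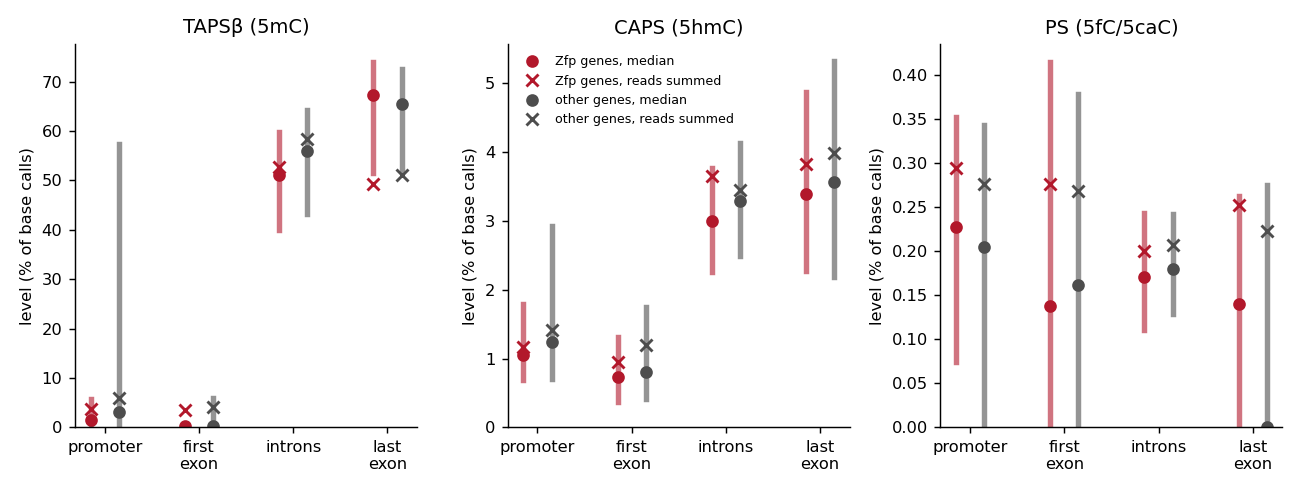
TAPSβ, CAPS and PS levels (% of base calls) of promoter, first exon, introns and last exon in the Zfp genes (red) and all other protein-coding genes (grey); dots are medians over genes, bars run from the lower to the upper quartile and crosses are levels summed over reads. The first exons are near 0 in TAPSβ, while last exons have medians of 67.3% and 65.5% with summed levels near 50%.

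The members differed strongly among themselves, and the level went with CpG density. Among the 102 members with under 1 CpG per 100 bp and enough base calls, the median TAPSβ level of the last exon was 73.2%, against 69.2% in 4244 other genes of that class. It was 68.5% at 1 to under 2 CpGs (108 members; other genes 66.5%) and 59.8% at 2 to under 3 (68 members; other genes 61.0%). In the 31 members with 3 to under 5 CpGs per 100 bp the median was 22.6% (quartiles 15.6% and 34.1%), where 1322 other genes had 43.7% (17.2% and 65.3%). In the 9 densest members it was 11.4%, against 4.80% in 445 other genes. By median, members were thus above the other genes in both sparse classes and in the densest. They were below them at 2 to under 3 and at 3 to under 5 CpGs. The summed levels of the members were higher at 2 to under 3 CpGs too, with 52.4% against 48.6%. At 3 to under 5 CpGs the summed levels lay closer together than the medians, with 22.03% against 27.01%. Over genes, TAPSβ level and density had a Pearson r of -0.67 and a Spearman rho of -0.53 (318 members), and -0.52 and -0.34 in 16423 other genes; genes of 1 library share its depth and base composition and are not independent replicates.

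**Figure D2:**
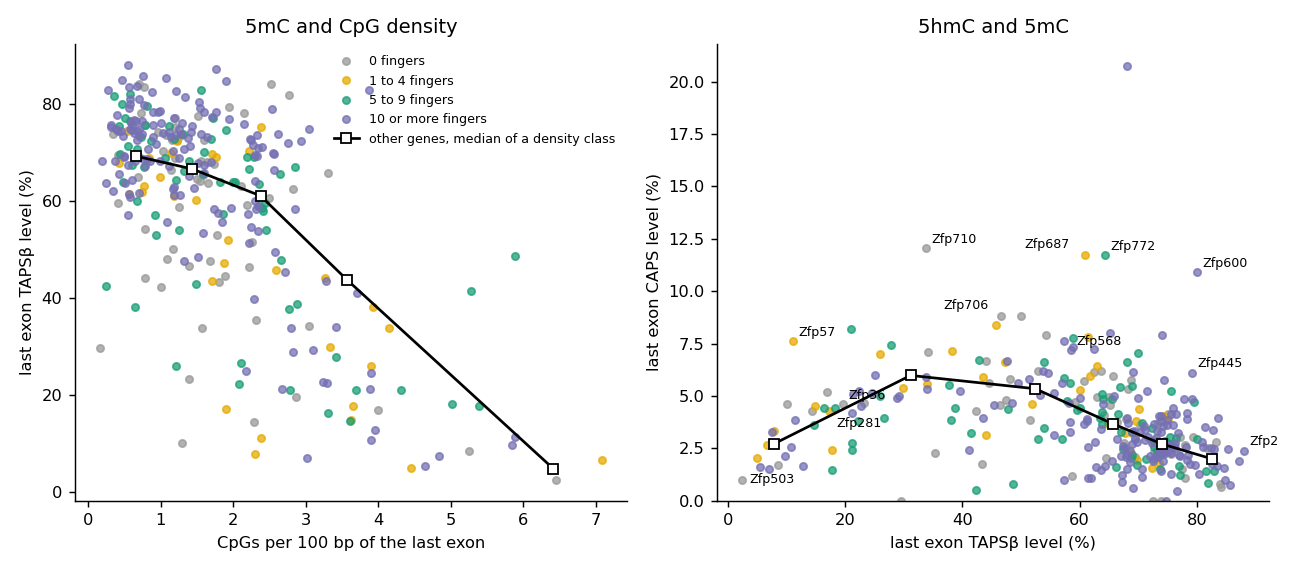
Left, last exon TAPSβ level of each member against CpGs per 100 bp, coloured by the number of C2H2 fingers in the last exon, with medians of other genes by density class as white squares; right, last exon CAPS against TAPSβ level, with medians of other genes by TAPSβ class. The medians of the members fall from 73.2% under 1 CpG per 100 bp to 11.4% in the densest class, and CAPS is highest at intermediate TAPSβ, with a median of 5.10% between 20% and 40%.

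Median last exon TAPSβ levels were highest in the members with 10 or more fingers. The 157 measured members with 10 or more fingers had a median TAPSβ level of 70.6% (60.7% and 75.5%) and a CAPS level of 2.96%. With 5 to 9 fingers the medians were 64.1% and 3.68%, with 1 to 4 fingers 56.0% and 4.33%, and with no finger in the last exon 64.1% and 3.89%. Summed over reads the level was 51.3% with 10 or more fingers, 48.9% with 5 to 9, 41.3% with 1 to 4 and 49.0% with none. In the members with 10 or more fingers the array itself had a summed TAPSβ level of 46.2% and the noncoding bases of the exon 61.8%. The median density was 1.29 CpGs per 100 bp at 10 or more fingers and 1.35 with no finger. It was 1.59 at 5 to 9 fingers and 1.89 at 1 to 4. The classes with most and with no fingers differed in the median coding share of the last exon, with 63.3% against 16.01%. Their median lengths were 2475 bp and 1455 bp. The part of density, coding share and length in the levels of the finger classes was not tested. Other genes with 10 or more fingers had medians of 75.8% TAPSβ and 2.75% CAPS at 1.12 CpGs per 100 bp. Only 55 of these 80 genes were measured, and 77.2% of their CpG cytosines had CAPS reads, against 98.3% in the members of this class. Summed over reads their TAPSβ level was 57.7%, against 51.3% in those members, and no test was run between the sets. Members with the KRAB pattern had a median TAPSβ level of 70.9% at 0.97 CpGs per 100 bp, and those without it 64.5% at 1.6. Their median finger numbers were 12 and 6. Among members with 10 or more fingers the TAPSβ medians were 72.6% with the pattern and 67.9% without it. The members with another array gene starting within 100 kb had a median of 69.0% over 185 measured genes, and those without such a neighbour 63.9% over 133. These groups also differed in density, with 1.3 and 1.56 CpGs per 100 bp, and in finger number, with medians of 11 and 2. By chromosome, the 39 members on chromosome 17 had a median of 73.1% TAPSβ and 2.53% CAPS at 0.70 CpGs per 100 bp, while those on chromosome 7, 80 of 84 measured, had 59.2% and 3.77% at 1.95.

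The members with the most fingers illustrate the range at high finger number. Zfp619, with 33 fingers in its last exon, read 1465 of 2440 base calls as modified in TAPSβ (60.04%, 58.1% to 62.0%) and 106 of 2166 in CAPS (4.89%, 4.02% to 5.89%). Zfp62, with 25, read 72.5% (69.1% to 75.7%) and 1.92% (0.924% to 3.50%), and Zfp748, with 23, read 68.6% (65.5% to 71.5%) and 2.40% (1.40% to 3.81%). Among members with at least 200 base calls in each library (275 of 329), the 5 highest TAPSβ levels belonged to array genes: Zfp2 at 88.0% (84.5% to 91.0%), Zfp11 at 87.2% (85.3% to 88.9%), Zfp942 at 85.7%, Zfp958 at 85.3% and Zfp810 at 84.7%, with 10 to 21 fingers and CAPS levels of 0.771% to 2.46%. The intervals of these neighbours in the order overlap.

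The 5 lowest levels came from CpG-dense exons. Zfp503, the developmental repressor Nolz1, had 127 of 5178 base calls modified in TAPSβ (2.45%, 2.05% to 2.91%), 1.01% in CAPS and 6.46 CpGs per 100 bp. Zfp428 followed at 4.94% (3.54% to 6.70%), Zfp467 at 5.42% (4.74% to 6.16%), Zfp580 at 6.60% (5.59% to 7.72%) and Zfp553 at 7.04% (6.19% to 7.97%), with 3.02 to 7.08 CpGs per 100 bp. Zfp467 and Zfp553 each encode 12 fingers in that exon. In all, 24 of 318 measured members had a last exon under 20% TAPSβ (7.55%), against 1255 of 16423 other genes (7.64%). A level of 80% or more was found in 24 members (7.55%) and in 921 other genes (5.61%).

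For contrast with the fingers shown above, the CpG-richest 150 coding bases of the Zfp503 last exon (chr14:22804576-22804725, minus strand, capitals marking CpGs) hold 19 CpGs, at which 6 of 666 base calls were modified in TAPSβ (0.901%, 0.331% to 1.95%) and 2 of 372 in CAPS.
Zfp503: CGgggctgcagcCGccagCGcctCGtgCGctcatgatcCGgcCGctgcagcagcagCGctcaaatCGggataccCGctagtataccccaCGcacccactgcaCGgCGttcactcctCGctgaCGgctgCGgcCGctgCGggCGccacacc

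Summed over reads, the arrays read lower in TAPSβ than the noncoding bases of the same exons, while within single genes the difference went both ways and had a median near 0. In the 244 members with at least 3 fingers, the summed TAPSβ level was 44.3% (44.1% to 44.6%) in the array, 48.8% (48.3% to 49.2%) in other coding bases and 62.1% (61.7% to 62.5%) in noncoding bases, with 2.43, 1.72 and 0.863 CpGs per 100 bp. CAPS hardly differed, with 3.75% (3.64% to 3.86%), 3.71% (3.51% to 3.92%) and 3.58% (3.42% to 3.75%). Over 176 members with enough base calls in both, the median difference between array and noncoding part was -1.17 percentage points (quartiles -15.8 and 5.72), and 80 of them had the array higher. The arrays of other genes with at least 3 fingers had a summed level of 37.5% (37.2% to 37.9%) at 2.25 CpGs per 100 bp, while their median over whole last exons was 69.9% against 68.2% in the members with at least 3 fingers. With the exon cut into 10 equal segments, the TAPSβ level of the members was 48.1% in segment 1, 41.5% in segment 2, 41.6% in segment 3 and 61.8% in segment 10, against 48.2%, 46.0%, 47.4% and 58.5% in other genes.

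**Figure D3:**
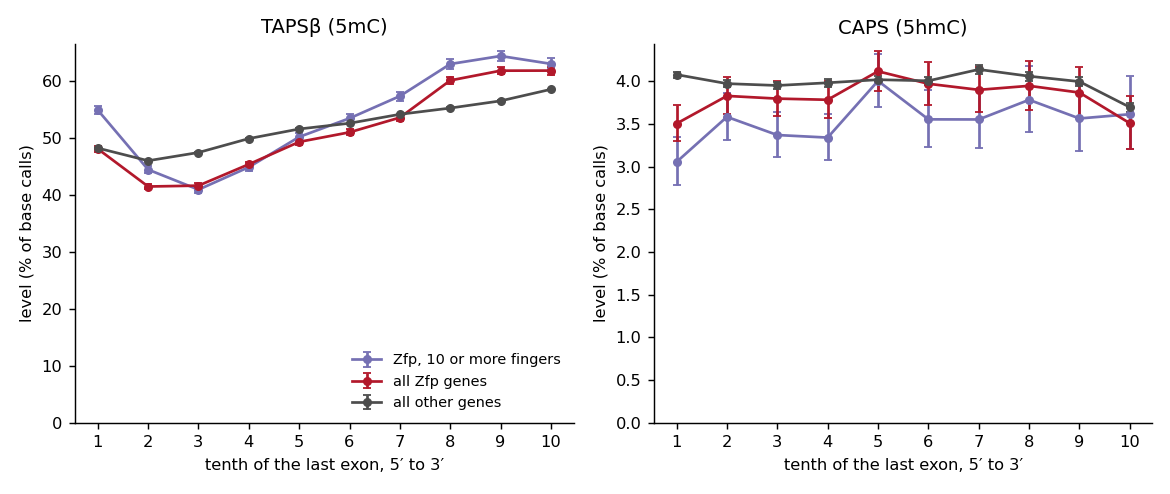
TAPSβ (left) and CAPS (right) levels over 10 equal segments of the last exon from 5′ to 3′, summed over reads, for members with 10 or more fingers, all members and all other genes; error bars are 95% counting intervals. In the members TAPSβ is 41.5% in segment 2 and ends at 61.8%, while CAPS stays between 3.50% and 4.12%.

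CpGs were unevenly spread over the 84 bases read for each finger. The most frequent is the first base of residue 19 (counted from the first cysteine as 1), between the pair of histidines, with a CpG in 449 of 2549 fingers, followed by the last base of the second cysteine codon in 300 and the first base of residue 10, the first DNA-contact position of the helix, in 261. The TAPSβ level was 48.3% (47.6% to 48.9%) at codons of the 4 DNA-contact residues and 46.0% (45.1% to 46.8%) at the 4 zinc ligands. In the 7 residues taken as the linker it was 42.2% (41.6% to 42.7%). In the same order the CAPS level was 3.78% (3.50% to 4.08%), 3.65% (3.30% to 4.04%) and 4.07% (3.84% to 4.32%). Single positions ranged more widely: among those with at least 50 CpGs, the first base of residue 6 read 23.0% in TAPSβ and the first base of residue 15 read 69.3%. Different positions draw their CpGs from different genes, and the part of the genes in these differences was not tested.

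**Figure D4:**
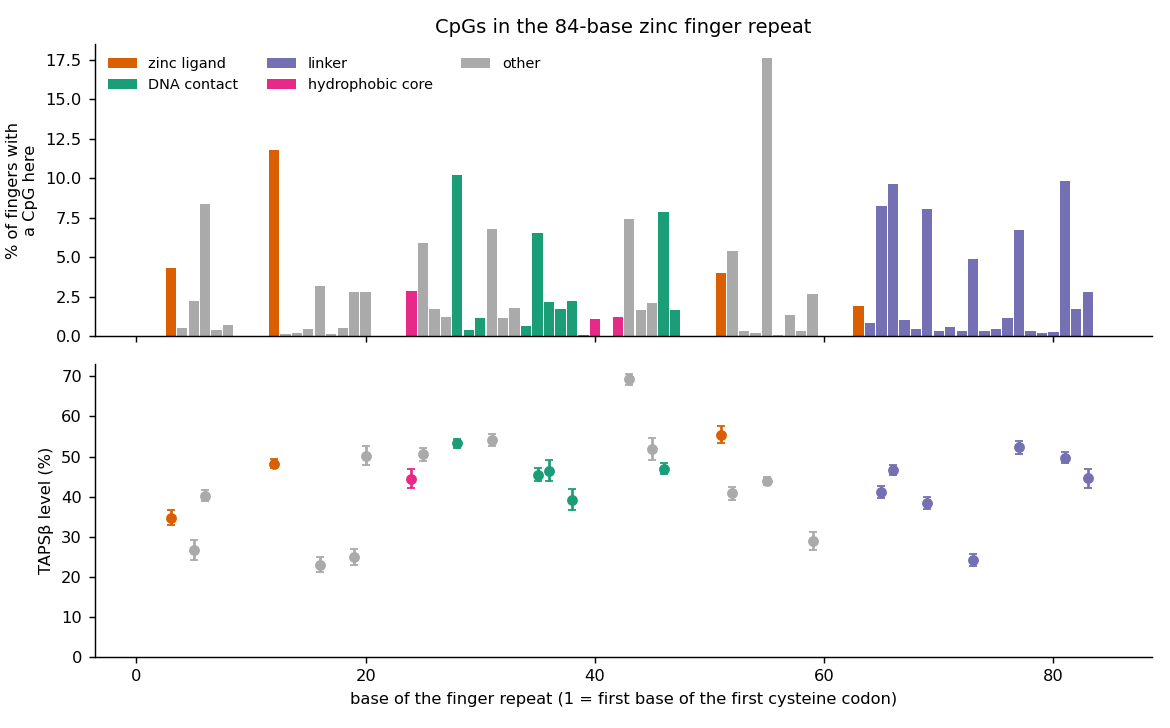
Top, share of the 2549 regular fingers with a CpG whose cytosine lies at each base of the repeat, coloured by the class of the residue; bottom, TAPSβ level with its 95% counting interval at positions with at least 50 CpGs. The highest bar, at base 55, stands for 449 fingers, and levels run from 23.0% at base 16 to 69.3% at base 43.

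The CAPS library was then tested cytosine by cytosine and gene by gene against its background rate of 0.72%. In the last exons of the members 482 of 23947 tested cytosines (2.01%) passed the one-sided exact binomial test at an adjusted p under 0.05, where 1.64% passed over the genome and 2.25% over last exons of other genes. The count depended on the setting, and so did the share over the genome. It was 304 of 12359 at a minimum of 10 reads (2.46%, genome 1.964%), 856 of 13048 with both strands of a CpG summed (6.56%, genome 5.12%) and 1685 of 23947 when adjusted only over cytosines with a modified read (7.04%, genome 5.51%). At least 1 called cytosine was found in 173 of 329 last exons (52.6%) against 37.7% over all genes; last exons of the members are longer, with a median of 2181 bp against 958 bp. Summed over the last exon, 276 of 317 members (87.1%) passed, where 77% of all genes did, and with at least 200 base calls 91.5% of members and 89.2% of all genes passed. CAPS levels peaked at intermediate 5mC: the median was 5.10% in the 30 members with 20% to under 40% TAPSβ, 3.32% in the 24 below that and 2.15% in the 24 at 80% or more. Other genes followed the same course, with 5.98%, 2.73% and 2.01%.

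The highest CAPS level with at least 200 base calls was that of Zfp710, with 74 of 614 base calls modified (12.1%, 9.58% to 14.9%), 33.8% in TAPSβ and 11 called cytosines of 59 tested. Zfp687 followed at 11.7% (8.16% to 16.1%), with 61.0% in TAPSβ. Zfp772 (11.7%), Zfp600 (10.9%) and Zfp106 (8.84%), an RNA-binding protein, come next in order, but they dropped to 2.02%, 4.73% and 6.75% when variant-like cytosines were left out. A cytosine was taken as variant-like when, with a PS coverage of at least 5, it read as modified in at least 20% of PS reads; the last exons of Zfp710 and Zfp687 kept their CAPS levels without such cytosines. The paper excluded known variants of the E14 line from its own analysis, and whether the deposited counts do so was not checked. A C-to-T difference from the reference reads as modified in every library, and whether these cytosines are such differences was not tested. The same holds for the less covered Zfp534, named after its values were seen, where 20.8% of 106 CAPS base calls became 5.97%.

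Variant-like cytosines are defined by their PS reads, so leaving them out lowers a PS level by construction. Without them the summed PS level was 0.173% in the members and 0.180% in other genes, a ratio of 0.965. With or without such cytosines, the summed PS levels of both sets lie under the background rate of 0.27%. In Zfp772, 98 of 773 base calls were modified in PS (12.7%, 10.4% to 15.2%), and 0.178% remained. Gene by gene, with variant-like cytosines left out, 1 of 315 members passed the test where 0.099% of all genes did. With these cytosines counted, 7 of 315 members (2.22%) and 1.04% of all genes passed. The member that passed without them was Zfp600, on chromosome 4, with 15 of 681 base calls (2.20%, interval 1.24% to 3.61%; adjusted p = 2.61e-06, exact binomial test with Benjamini-Hochberg adjustment). Zfp808, with 2.21% of 271 base calls (adjusted p = 0.0849 by the same exact test), and Zfp960, with 1.87% of 268 (adjusted p = 0.477), did not pass. All 3 have the KRAB pattern and 13 to 22 fingers, as do many members (120 of 329 have the pattern and 158 have 10 or more fingers). In the last exon, 84.1% of CpG cytosines had CAPS reads in Zfp600, 100% in Zfp808 and 93.8% in Zfp960. Over the members it was 97.6%. The Zfp600 last exon had 787 PS base calls over 44 CpG cytosines, where the mean over members was 10.4 per cytosine. With variant-like cytosines counted, introns read 1.91% (Zfp600), 1.30% (Zfp808) and 1.43% (Zfp960) in PS, against 0.201% over members. The Zfp960 promoter read 1.24%, against 0.295% over members, and the Zfp600 promoter had no base calls. The part of read placement among duplicated genes in these values was not tested.

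Promoters, taken as 500 bp to each side of the start, were mostly unmethylated. Over 326 members with at least 50 base calls the median TAPSβ level was 1.47% (quartiles 0.352% and 5.81%), against 3.17% (0.411% and 57.4%) over 19971 other genes. A level of 50% or more was found at 53 promoters (16.3%), where 28.9% of all promoters and 28 of 151 promoters (18.5%) of other genes with at least 3 fingers reached it. With at least 200 base calls, 33 of 302 promoters (10.9%) and 19.9% of all promoters did. In the members 236 (72.4%) were under 5%, against 54.4% of other promoters. Summed over reads the level was 3.65% (3.60% to 3.71%) against 6.04% (6.03% to 6.05%), a ratio of 0.605 (0.596 to 0.614), the lowest of the TAPSβ ratios of the 4 features. The CAPS level was 1.16% (1.12% to 1.21%) against 1.42% (1.41% to 1.42%). First exons, which often lie within the start window, had median TAPSβ levels of 0.289% and 0.373%.

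**Figure D5:**
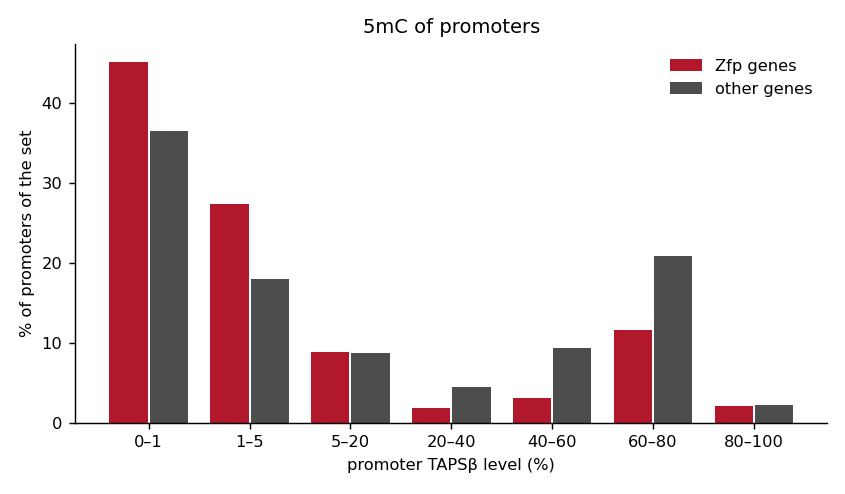
Share of promoters by TAPSβ level, for the 326 measured Zfp genes (red) and 19971 other genes (grey). Of the Zfp promoters 72.4% are under 5%, against 54.4% of the others.

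The 8 methylated promoters with the highest levels were those of Zfp445 at 90.7% (235 of 259 base calls), Zfp950 at 82.8%, Zfp930 at 82.5%, Zfp709 at 81.7%, Zfp957 at 81.2%, Zfp708 at 80.9%, Zfp78 at 80.0% and Zfp939 at 79.4%. These windows hold few CpGs, and the start is that of the transcript with the longest coding sequence. Among the 53 promoters, 16 genes had another annotated start over 1000 bp away with enough base calls, and in 8 of them such a start was under 20%: Zfp62, for example, read 73.7% at the start used and 0.0426% (1 of 2345 base calls) at another 10543 bp away. The 200 bases before the start are shown for Zfp445, whose promoter had the highest level, and, chosen after its value was seen, for Zfp568, which lies at the other end; the strands are those of the genes, in NCBIM37, and capitals mark CpGs.
Zfp445, chr9:122771247-122771446 (-): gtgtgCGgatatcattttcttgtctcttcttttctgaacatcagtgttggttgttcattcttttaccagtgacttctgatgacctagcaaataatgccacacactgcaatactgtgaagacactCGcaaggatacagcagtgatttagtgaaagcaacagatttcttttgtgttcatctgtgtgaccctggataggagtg
Zfp568, chr7:30768774-30768973 (+): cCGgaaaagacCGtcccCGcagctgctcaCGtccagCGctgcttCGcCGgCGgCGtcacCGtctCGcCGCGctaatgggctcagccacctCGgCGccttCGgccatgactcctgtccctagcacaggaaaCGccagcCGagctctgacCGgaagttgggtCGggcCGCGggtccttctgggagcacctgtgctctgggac

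The Zfp445 stretch holds 2 CpGs, with 35 of 39 base calls modified in TAPSβ (89.7%, 75.8% to 97.1%). The Zfp568 stretch holds 22, with 2 of 739 modified (0.271%, 0.0328% to 0.974%).

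Introns of the members were less methylated than those of other genes, at 52.7% (52.6% to 52.8%) against 58.3% (58.3% to 58.3%) in TAPSβ, with medians of 51.0% and 56.0%. Their CAPS level was 3.66% (3.62% to 3.69%) against 3.45% (3.44% to 3.45%), while the median over genes went the other way, with 2.99% against 3.30%. Within genes, the last exon exceeded the introns in TAPSβ in 230 of 317 members and in 11765 of 16291 other genes. Over all 317 members the median difference was 13.5 percentage points, and over all 16291 other genes it was 8.80. In CAPS the median difference was 0.30 points in the members and 0.241 in the other genes.

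The members that act on imprints and retroelements did not share a level. Zfp57, which with Zfp445 keeps imprinted regions methylated, read 99 of 897 base calls as modified in TAPSβ in its last exon (11.04%, 9.06% to 13.3%) and 38 of 499 in CAPS (7.62%, 5.45% to 10.3%), with a promoter at 2.06%. Of the other genes 4.88% had a lower last exon TAPSβ level and 91.6% a lower CAPS level. Zfp445 read 79.1% (75.9% to 82.1%) in TAPSβ and 6.12% (4.34% to 8.33%) in CAPS, so the members of this pair lay at opposite ends in 5mC and overlapped in 5hmC. Zfp568, which represses a placental transcript of Igf2, had 58.6% (56.0% to 61.2%) and 7.17% (5.81% to 8.73%), with 8 of 113 cytosines called in CAPS and a promoter at 0.114%. Among repressors of endogenous retroviruses, Zfp932 had 79.1% (74.4% to 83.3%) and 4.87%, Zfp819 had 63.8% (60.6% to 66.95%) and 5.08%, and the entry of Zfp708 with 9 fingers in its last exon had 72.7% (67.9% to 77.2%) and 2.81%. The last exon of the Zfp809 transcript used is 164 bp long and holds none of its 7 fingers; it read 45 of 62 base calls (72.6%, 59.8% to 83.1%). The other Zfp708 entry ends in an exon of 39 bp with no CpG.

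Members of pluripotency and general transcription had promoters at 0.429% TAPSβ or less and last exons of low to middle level. Zfp281, a factor of the pluripotency network, read 502 of 2922 base calls in TAPSβ (17.2%, 15.8% to 18.6%) and 4.28% in CAPS. Zfp217, a corepressor subunit, read 23.2% (20.3% to 26.3%) and 4.66%, and Zfp143, an activator that binds promoters widely, read 48.0% (43.1% to 53.0%) and 5.81%. Zfp706, which acts on the exit from self-renewal, stood high in 5hmC with 77 of 873 base calls (8.82%, 7.02% to 10.9%) at 46.7% in TAPSβ; its CAPS level was above that of 95.3% of other genes. Zfp207, a mitotic spindle protein, had 62.5% of 144 base calls, and the 2 CpG cytosines of the Zfp296 last exon gave 33 base calls and no usable value.

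The developmental regulators Zfp503, Zfp703, Zfp423, Zfp536, Zfp238 and Zfp462 ranged from 2.45% to 63.7% in last exon TAPSβ level. Zfp703, a relative of Zfp503, read 8.47% (7.66% to 9.34%) in TAPSβ and 1.72% in CAPS at 5.25 CpGs per 100 bp. Zfp423 and Zfp536, factors of neural development, read 14.3% (11.7% to 17.3%) and 14.8% (13.1% to 16.5%), with CAPS levels of 4.30% and 4.54%, at 2.29 and 3.62 CpGs per 100 bp. Zfp238, a repressor in cortical development, read 51.9% (49.5% to 54.4%) and was alone among these in having a methylated promoter, at 61.6%. Zfp462, whose 33 fingers all lie before the last exon, read 63.7% (60.7% to 66.5%) there and 6.20% in CAPS. The last exon of Zfp521 is 30 bp with no CpG. Zfp36, an RNA-binding protein with fingers of another type that speeds the decay of mRNAs, read 19.6% (17.5% to 21.8%) in TAPSβ and 4.60% in CAPS.

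The machinery that KRAB zinc finger proteins recruit was read from a list of 15 genes, of which 14 are autosomal (Trim28, Setdb1, the HP1 genes Cbx1, Cbx3 and Cbx5, Ehmt1, Ehmt2 and others). Promoters of 13 were under 20% TAPSβ, with a median of 0.181% over the 14, and the exception was Atf7ip, a cofactor of Setdb1, at 25.3%; over all genes 36.5% of promoters were at 20% or more. Last exons of 13 genes had enough base calls, with a median of 64.1% TAPSβ, and only Daxx, a histone chaperone gene, was under 20%, at 4.15%, as were 7.64% of the last exons of other genes. In CAPS 9 of 12 last exons passed the test against background, where 77% of all genes did. In PS none of 12 passed, where 0.099% of all genes did.

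Coverage left some members without a value. Of 329 last exons, 11 had under 50 base calls in TAPSβ: the 5 of Zfp939, Zfp125, Zfp640, Zfp521 and 1 Zfp708 entry hold no CpG, Zfp771 and Zfp429 hold 272 and 26 CpG cytosines with no reads in TAPSβ, and Zfp296, Zfp511, Zfp781 and Zfp950 had 14 to 38 base calls.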

How the data were processed

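CpG tables of 3 libraries were used, 1 each for TAPSβ, CAPS and PS of the same E14 genomic DNA. According to the methods and the submitters' notes, the authors trimmed reads with Trim Galore 0.3.1 and aligned them with BWA 0.7.12 to mm9 with spike-in sequences. They removed duplicates with Picard 2.3.0, left out low mapping qualities and counted bases with asTair. For their own analysis they also excluded sites in artifact-prone regions and at known E14 variants. Whether the deposited counts carry this exclusion was not checked, and it was not applied here. As deposited, the columns used hold counts of modified and of unmodified base calls per CpG cytosine and strand, not normalized; the deposited fraction column is their ratio and matched it on every line. CAPS used shorter fragments than the other libraries.

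From these counts, base calls were summed over regions of GENCODE M1 (for each gene, the protein-coding transcript with the longest coding sequence), with levels, exact 95% intervals, and medians over genes with at least 50 base calls (numpy 2.4.6 and scipy 1.17.1 under Python 3.11.15; tables were read with pandas 2.3.3 and figures drawn with matplotlib 3.10.9). Cytosines with at least 5 reads, and last exons summed with variant-like cytosines left out, were set against the false-positive rate in an exact binomial test, one-sided for more modified reads (0.0072 for CAPS, 0.0027 for PS), with Benjamini-Hochberg adjustment over the genome or over all genes. On 994785 simulated cytosines with the CAPS coverage of chromosome 19, the test found 60.3% of those raised to a set level, with 0.749% of calls false. With the PS rate at the same coverage it found 81.0%, with 1.95% false. These shares hold for that set level only, which lies far above the summed CAPS and PS levels of the last exons. For single cytosines the power at other levels was not tested. On 2000 simulated regions the test found 77.5% of those raised to 5 times the rate for CAPS, with 1.90% of calls false. For PS it found 51.5%, with 4.63% false.

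Named genes were those with a known role, the 5 highest and 5 lowest last exons in TAPSβ, the 5 highest in CAPS and 3 in PS with at least 200 base calls in each library, the 8 most methylated promoters and the 3 members with the most fingers. Sequences were read from NCBIM37; no start window of the sequence table was found at the Zfp445 start, so the genome was used. The members, lists and tests were chosen with earlier results of these data known. Alternatives covered coverage limits, averaging, variant-like and high-coverage cytosines, exon choice, gene sets and corrections for background and conversion.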

Additional observations from a re-analysis of the deposited data

How the results depend on the processing

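With 1 library per method there is no error between samples, so a value was taken as moved when it left the counting interval of the reported value, which is narrow. No paired analysis was possible because each method has 1 library. Depth limits single genes in PS, where the median last exon of other genes had a level of 0%.

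Of 91 values under alternatives 49 stayed within the interval, or within 1.5 times for counts, 34 moved and 8 turned to the other side of 1; the cause was not tested. Where each of the 3 libraries had 5 or more reads, the TAPSβ level of the members was 51.1% and the ratio 0.979, and with at least 10 reads the levels were 47.9% (TAPSβ), 3.72% (CAPS, ratio 0.985) and 0.286% (PS). The mean of single cytosines gave 51.1% (TAPSβ, ratio 0.960) and 0.220% (PS). The mean over genes gave 59.9% with a ratio of 1.01, the reverse direction, in TAPSβ and 0.290% with a ratio of 1.29 in PS. Without variant-like cytosines CAPS was 3.74% and PS 0.173%, with the PS ratio reversed to 0.965.

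Coding bases alone gave 44.0% with the TAPSβ ratio reversed to 1.08, and 3.73% with a ratio of 0.981 in CAPS. Last exons of all transcripts gave 49.8% in TAPSβ, and those overlapping no other gene 48.3% with a ratio of 0.934. With single-exon genes TAPSβ was 48.6%, and the ratios reversed to 1.04 (TAPSβ) and 1.02 (CAPS). Members with at least 3 fingers had 49.5% (ratio 0.971) in TAPSβ and 3.70% (ratio 0.926) in CAPS. Last exons at least 50% coding had 49.1% in TAPSβ and 3.73% in CAPS, with all 3 ratios reversed, to 1.28 (TAPSβ), 1.04 (CAPS) and 0.897 (PS). Correction for background and conversion gave 50.4% in TAPSβ and 0% in PS, where no ratio could be formed.

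CAPS sites called in last exons of the members were 304 of 12359 at a minimum of 10 reads (2.46%, genome 1.964%), 1685 of 23947 when adjusted only over cytosines with a modified read (7.04%, genome 5.51%) and 856 of 13048 with both strands summed (6.56%, genome 5.12%). With variant-like cytosines counted 7 of 315 members passed the PS test (2.22%, all genes 1.04%), and at a minimum of 200 base calls 33 of 302 promoters reached 50% (10.9%, all genes 19.9%).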
